A study of Mus musculus with 26 samples.

Results

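The cytoplasmic ribosomal proteins are the protein subunits that, with ribosomal RNA, build the small (40S) and large (60S) subunits of the ribosome. Their genes were taken by symbol, as Rpl or Rps followed by a number with at most an a or x, plus Rplp0, Rplp1, Rplp2 and Rpsa, with pseudogenes left out. This gave 74 of the 37310 genes in the count tables, of which 30 code for 40S proteins, 41 for 60S proteins and 3 for the acidic stalk of the 60S subunit. All 74 passed the filter on low counts in every comparison. Rpl24 and Rpl41 are not analysed here, and Rps3a1 falls outside the naming rule.

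PolyA+ RNA was sequenced from mammary tumors of C57BL/6 mice carrying MMTV-PyMT, a transgene in which a mammary tumor virus promoter drives the polyoma middle T antigen in mammary epithelium, and from organoids grown from such tumors. Tumor-bearing mice received 125 mg/kg of oligonucleotide subcutaneously each week, either Malat1 ASO1 (n = 3), Malat1 ASO2 (n = 4) or scASO, the control oligonucleotide (n = 3). Antisense oligonucleotides (ASOs) pair with an RNA and lead to its degradation, and Malat1 is an abundant nuclear long noncoding RNA. Organoids embedded in Matrigel with FGF2 were given 500 nM of Malat1 ASO1, Malat1 ASO2 or scASO for 6 days, with renewal on day 3. Other such organoids were given Mock, for which no oligonucleotide is named (n = 4 in each organoid group). Every group, control groups included, carries the same transgene and strain label. Whether the libraries of a group are separate animals or cultures is not in the labels, and p-values here reflect the spread between libraries, which may be technical. Tumor pieces also hold cells that are not epithelial, and in such bulk RNA fewer cells of a type and less RNA per cell cannot be told apart.

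Ribosomal protein mRNAs are among the most abundant messages of growing cells. Many start with a run of pyrimidines at the cap, the TOP motif, through which the kinase mTOR controls their translation. Because they are short and abundant in the germ line, they have been copied back into the genome many times as processed pseudogenes, which lack introns and can match the parent mRNA almost base for base. Reads that align to several places are not counted for any gene by common counting tools, so such copies bear on every level given here.

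The sequences that follow show how close some of these copies are. They are the sense strands of coding bases 1 to 60 of each gene (57 to 116 for Rpl23a) and the matching bases of the pseudogene that held the most reads (for Rps27, of an exact copy and of a paralog), from the GENCODE M21 transcripts (build GRCm38), with capitals for bases that differ from the gene.
Rps6: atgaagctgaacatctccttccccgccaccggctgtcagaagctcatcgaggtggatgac
Rps6-ps4: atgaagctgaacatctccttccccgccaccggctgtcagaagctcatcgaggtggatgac
Rps16: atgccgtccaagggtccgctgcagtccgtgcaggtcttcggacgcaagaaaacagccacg
Rps16-ps2: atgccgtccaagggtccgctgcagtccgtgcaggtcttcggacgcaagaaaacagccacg
Rpl23a: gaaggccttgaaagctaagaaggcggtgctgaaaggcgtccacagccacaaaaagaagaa
Rpl23a-ps3: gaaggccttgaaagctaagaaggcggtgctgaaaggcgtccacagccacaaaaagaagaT
Rpl3: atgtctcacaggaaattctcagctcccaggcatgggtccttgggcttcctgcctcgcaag
Rpl3-ps1: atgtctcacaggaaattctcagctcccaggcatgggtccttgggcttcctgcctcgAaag
Rps27: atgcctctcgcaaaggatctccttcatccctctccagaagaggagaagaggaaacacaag
Rps27rt: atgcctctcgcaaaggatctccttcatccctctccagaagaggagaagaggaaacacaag
Rps27l: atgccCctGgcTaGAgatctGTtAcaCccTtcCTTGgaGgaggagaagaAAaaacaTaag
Rps6 lies on chr4:86854660-86857412 (minus strand) and its intronless copy Rps6-ps4 on chr2:75191073-75191822, with an identical aligned coding sequence. Rps16 lies on chr7:28350652-28353155 (plus strand) and Rps16-ps2 on chr5:129128077-129128517, also with no differing base. Rpl23a (chr11:78180932-78183584, minus strand) and Rpl23a-ps3 (chr14:34170655-34171122) differ at 1 of 468 aligned bases, and Rpl3 (chr15:80077791-80091868, minus strand) and Rpl3-ps1 (chrX:13202571-13203780) at 2 bases. Rps27 (chr3:90212522-90213651, minus strand) has a coding sequence of 252 bases that Rps27rt (chr9:114982366-114982739) repeats exactly, while the paralog Rps27l (chr9:66946086-66949516, plus strand) differs at 60 of them.

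Across the family, most coding sequence was not unique. For each gene, every stretch of 50 coding bases was looked up among all other annotated genes and pseudogenes, and the share also present elsewhere had a median of 90.8% over the 74 genes. For 27 genes every stretch was shared and for 11 under 50% was. Among all 21858 coding genes 74.6% shared no stretch and 2.82% shared all. Counted over whole transcripts, untranslated ends included, Rpl7a matched the most other loci, 120.

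Measured levels were ordered by this sharing of coding sequence. Levels between genes are given as the median over the 26 libraries of normalised counts-per-million (CPM) divided by coding length in kilobases. The 11 genes with under 50% shared lay at 981 to 2078, with a median of 1272. The 36 genes with 50% to under 100% shared lay at 54.0 to 2802, with a median of 417. The 27 genes with all stretches shared lay at 3.79 to 277, with a median of 43.4, so their range did not overlap that of the least shared genes. Across the 74 genes, which share libraries and depth, the level was related to the shared percentage with Spearman's rho -0.84 and Pearson's r -0.69 on log2 levels. With stretches of 100 bases the values were -0.88 and -0.82, whereas rho with coding length was 0.10. The relation was weaker over whole transcripts, untranslated ends included, where rho of level with the shared percentage was -0.29. Counting only unshared transcript stretches hardly narrowed the family, with a standard deviation of log2 levels of 2.19 against 2.24 for all stretches.

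**Figure D1:**
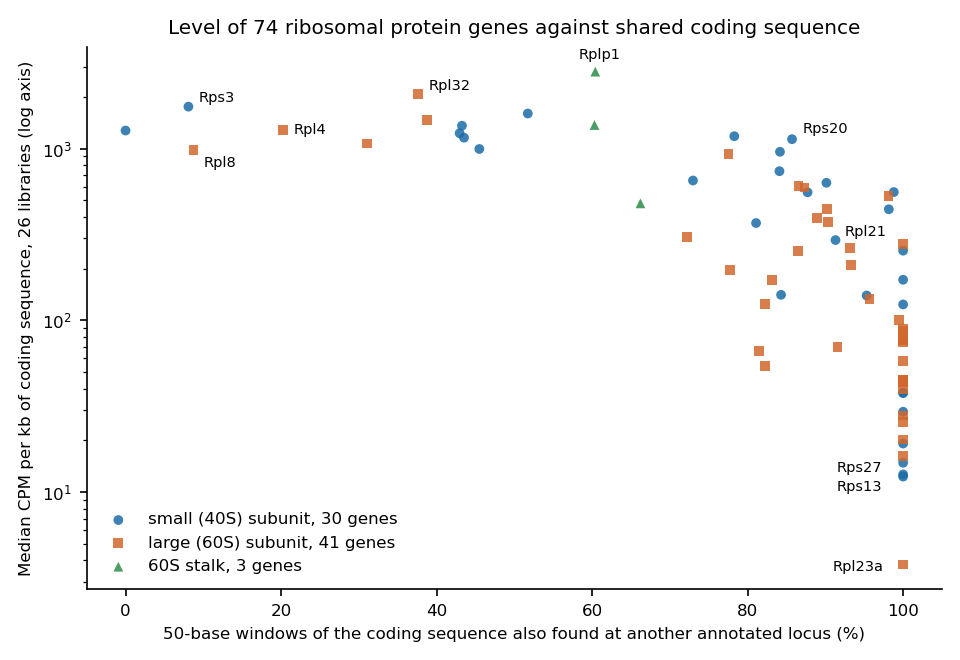
Level of each of the 74 ribosomal protein genes (median CPM per coding kilobase over 26 libraries, log axis) against the percentage of its 50-base coding stretches that also occur at another annotated locus. Symbols mark 40S, 60S and stalk proteins; the genes at 100% lie between 3.79 and 277, below the 11 genes under 50%.

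The most highly counted genes per coding kilobase were Rplp1, an acidic stalk protein, at 2802, Rpl32 at 2078, Rps3, which lies at the mRNA entry channel, at 1753, Rps14 at 1599 and Rpl13a at 1463. The lowest were Rpl23a, which lies at the peptide exit site, at 3.79, Rps13 at 12.3 and Rps27 at 12.7. The distance from top to bottom was 740-fold, among proteins that a ribosome holds in about equal numbers. The 10 most counted genes held 52.9% of all ribosomal protein reads. Genes with little shared sequence included Rps3 at 8.09%, Rpl8 at 8.73%, Rpl4 at 20.3% and Rpl22 at 31.0%. Rps20 was a gene with much shared sequence, 85.7%, and a level of 1133. Rpl23a had as few as 14 reads in a library, and Rps29, Rps27 and Rps13 as few as 42, 47 and 72, so the values of these 4 genes carry the most counting error.

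Reads counted at the copies were as many as, or more than, those counted at many of the genes. In all, 583 annotated pseudogenes shared a 50-base coding stretch with a member, and 69 of the 74 members had at least 1 such pseudogene. In each library these pseudogenes held 62.8 to 68.8 reads for every 100 at the 74 genes. For 28 genes the pseudogene reads exceeded those of the gene in all 26 libraries, and for 26 genes a single pseudogene did so. The counts do not show from which locus such a read was transcribed, and the gene's own value is uncertain to that extent.

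Rps6, the 40S protein phosphorylated downstream of mTOR, had a median of 15 CPM in tumors and 14.3 in organoids, while its pseudogenes had 356 and 546, so that 97.2% of the joint reads lay at the pseudogenes, mainly Rps6-ps4. Rpl23a had 1.42 and 1.99 CPM against 102 and 141 at its pseudogenes, or 98.5% of the reads. Rps29, a zinc-binding 40S protein, had 98.3% at the pseudogenes and Rpl5, which carries 5S RNA into the 60S subunit, 97.2%. Rpl37, Rpl31, Rpl17, Rpl28, Rpl11, Rpl12, Rpl38, Rpl27a and Rpl19 lay between 91.4% and 95.8%. Rps13 had 89.9%, Rpl10a 88.1%, Rps16 87.0% and Rpl3, at the peptidyl transferase centre, 79.2%.

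**Figure D2:**
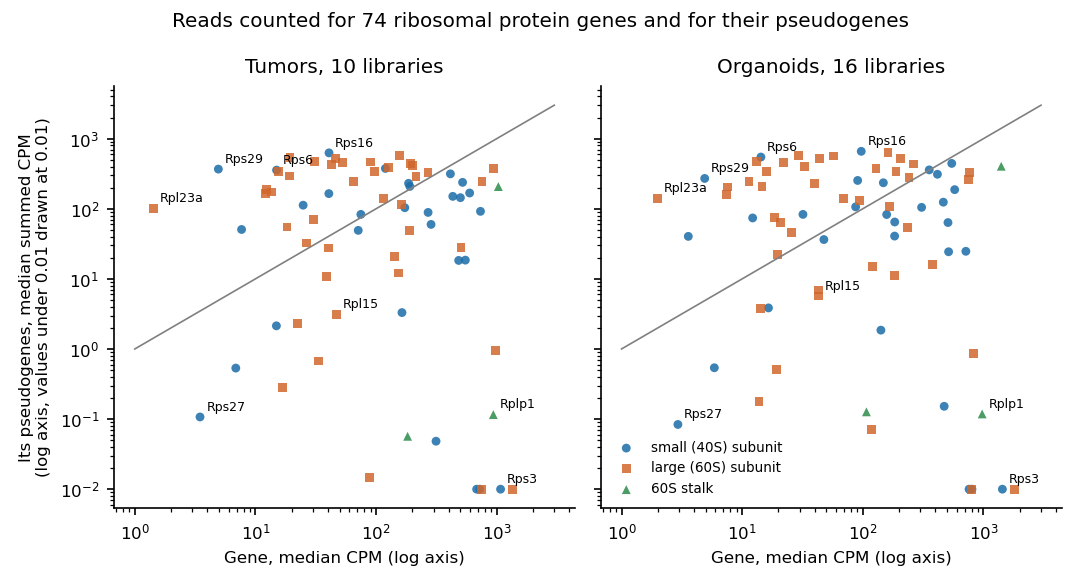
CPM counted for ribosomal protein genes and for the annotated pseudogenes that share a 50-base coding stretch with them (log axes, medians over tumors and over organoids, pseudogene values under 0.01 drawn at 0.01). Points above the diagonal have more reads at pseudogenes than at the gene, as Rps6 has with 15 against 356 CPM in tumors.

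When pseudogene reads were added to the gene each shared most with, the spread of the family narrowed. The standard deviation of the log2 level per coding kilobase was 2.23 for the genes alone and 1.69 for the sums, and the distance from highest to lowest went from 740-fold to 209-fold. The median of the 27 fully shared genes was 43.4 alone and 366 as a sum, against 1272 for the 11 least shared genes in both. Spearman's rho with the shared percentage was -0.54 for the sums. Some fully shared genes had few pseudogene reads to add and stayed low, as Rps27 at 13.4, Rps23, at the decoding centre, at 16.1, Rpl10, which completes the peptidyl transferase centre, at 43.6, and Rps12 at 44.8 per coding kilobase.

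Some related genes fall outside the naming rule. Rps27rt, the exact coding copy of Rps27, had a median of 416 CPM in tumors and 147 in organoids, whereas Rps27 had between 1.29 and 6.56 in all 26 libraries. Rps27l had 187 and 111 CPM. Rpl36al, 87.7% identical to Rpl36a over the coding sequence, had 134 and 108. Fau, which encodes a ribosomal protein fused to ubiquitin-like sequence and shared every stretch, had 14.5 CPM in tumors. Rack1, a scaffold on the 40S head with 1.44% shared, had 1187 in tumors and 1714 in organoids.

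RefSeq promoter windows (GRCm38.p6, 250 bases before to 50 after the start) were available for 54 of the 74 genes. Counting only the bases within 15 of the start, 25 of 54 (46.3%) held an unbroken run of at least 8 C or T, the letters of a TOP start, against 13.9% of all genes with a window. Translation factors known as TOP mRNAs held one in 22.2%, ribosome biogenesis factors in 7.14% and mitochondrial ribosomal proteins in 13.0%. The motif CCGGAAG, the core bound by ETS-family factors such as GABPA, searched on both strands of the whole window, was present in 22 of 54 (40.7%) against 9.93% of all genes. It was also present in 37.7% of mitochondrial ribosomal protein genes, 28.6% of ribosome biogenesis factors and 22.2% of the translation factors. CACGTG, the E-box, was present in 11.1% against 8.09%, and in 25% of ribosome biogenesis factors. TATAAA was present in 11.1% against 15.7%. The windows of 30 bases around the start are shown for genes named in the comparisons that follow, with the longest pyrimidine run in capitals.
Rpl27a: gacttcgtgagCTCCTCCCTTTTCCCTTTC
Rpl15: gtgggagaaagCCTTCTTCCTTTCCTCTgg
Rpl35: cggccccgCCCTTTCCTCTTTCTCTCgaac
Rps6: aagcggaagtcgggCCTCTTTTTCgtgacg
Rpl38: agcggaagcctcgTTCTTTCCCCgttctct
Rps24: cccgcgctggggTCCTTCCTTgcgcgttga
Rpl10: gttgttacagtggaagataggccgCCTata
These lie at chr7:109519180-109519209 (Rpl27a, plus strand), chr14:18270972-18271001 (Rpl15, minus), chr2:39005117-39005146 (Rpl35, minus), chr4:86857353-86857382 (Rps6, minus), chr11:114668565-114668594 (Rpl38, plus), chr14:24490663-24490692 (Rps24, plus) and chrX:74270801-74270830 (Rpl10, plus). The runs span 19 bases in Rpl27a, 17 in Rpl15, 18 in Rpl35, 10 in Rps6 and Rpl38, 9 in Rps24 and 3 in Rpl10. Such a match describes letters only and no binding or translation was measured.

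Tumor libraries held 9939520 to 51363552 counted reads and organoid libraries 23973533 to 65146030. Malat1, the targeted RNA, was at 401 to 824 CPM in ASO1 tumors, 381 to 913 in ASO2 tumors and 847 to 1914 in scASO tumors, with some overlap between the last pair. In organoids it was at 87.0 to 186 CPM with ASO1 and 713 to 1578 with Mock. With ASO2 it was at 1485, 219, 95.6 and 307 CPM (replicates 1 to 4) and with scASO at 836, 119, 781 and 1191. The libraries labelled organoid ASO2 replicate 1 and organoid scASO replicate 2 thus go against their labels. Over the 74 genes (log2 CPM minus the organoid mean) each was also most like the other's replicate number. The first had an r of 0.93 with the mean profile of number 2 and 0.69 with that of number 1, and the second 0.93 with number 1 and 0.65 with number 2. Whether their labels were exchanged was not tested, and values given by number or for ASO2 and scASO organoids rest on the labels as deposited. The fits of organoids against scASO, against Mock and against tumors are also given without both libraries. The epithelial markers of the labelled tissue, Epcam and keratins among them, summed to 2972 to 4858 CPM in tumors and 5935 to 12595 in organoids. The medians of Krt14 and Krt5 were 92.9 and 99.1 CPM in tumors and 1416 and 1493 in organoids. Elf5, in the same list, went the other way, with a lower median in organoids. In scASO organoids against scASO tumors 6 of the 7 markers were higher (median log2 difference 0.35).

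In tumors the 74 genes together held a larger share of counted reads in every Malat1 ASO library than in every scASO library. The shares were 2.32%, 2.39% and 2.17% with ASO1, 2.4%, 2.45%, 2.19% and 3.28% with ASO2, and 1.93%, 2.04% and 1.90% with scASO. Group values were 2.3% ± 0.113 (SD, n = 3), 2.58% ± 0.479 (SD, n = 4) and 1.96% ± 0.0737 (SD, n = 3). The highest share, ASO2 replicate 4, stood apart from the other ASO libraries.

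In organoids the number 4 library had the highest share in each treatment, and the treatment groups overlapped. From replicate 1 to 4 the shares were 1.35%, 1.74%, 1.85% and 2.53% with ASO1 and 1.84%, 2.09%, 1.87% and 2.28% with ASO2. They were 1.3%, 1.47%, 1.58% and 2.16% with scASO and 1.44%, 1.90%, 1.92% and 2.95% with Mock. Group values of 1.87% ± 0.489, 2.02% ± 0.203, 1.63% ± 0.375 and 2.05% ± 0.641 (SD, n = 4 each) had overlapping ranges. Within a number, however, the library labelled scASO had the lowest share of the 4 treatments in every number. In numbers 1 to 4 the other treatments exceeded it by 0.0559, 0.271, 0.275 and 0.366 percentage points with ASO1, by 0.543, 0.622, 0.296 and 0.115 with ASO2 and by 0.138, 0.439, 0.346 and 0.793 with Mock. These differences are a description with no test, and numbers 3 and 4 hold neither of the libraries that go against their labels.

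**Figure D3:**
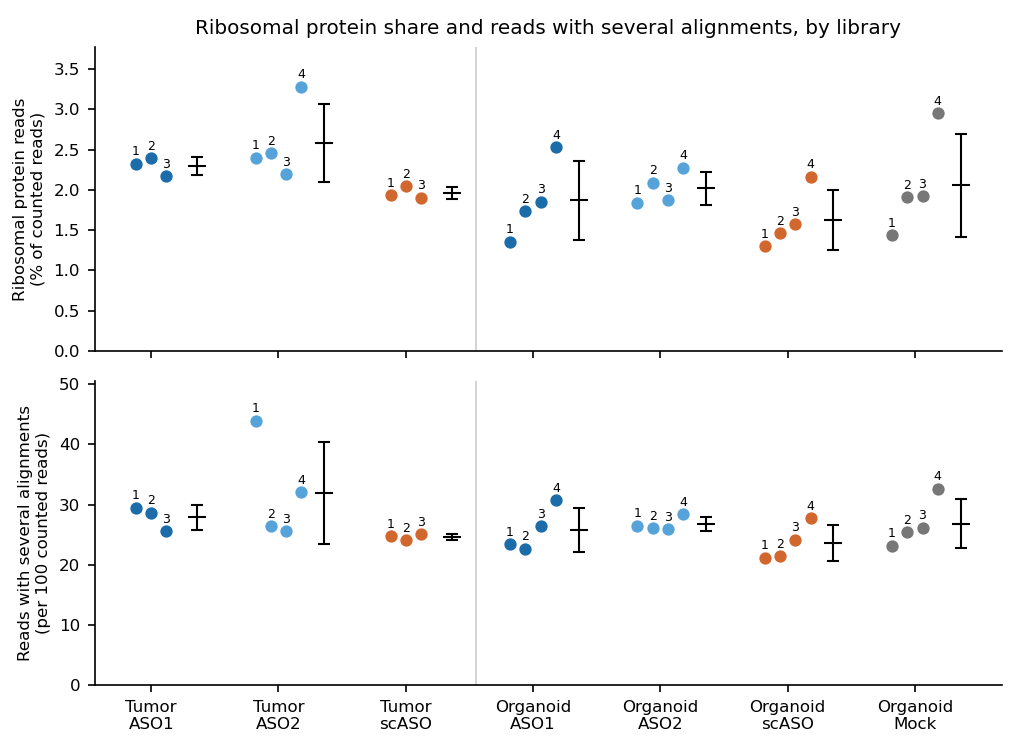
Share of counted reads held by the 74 ribosomal protein genes in each of the 26 libraries, by group (upper panel), and reads with several alignments per 100 counted reads (lower panel). Points are libraries with their replicate number and bars are mean ± SD. In tumors the 3 scASO libraries (1.90% to 2.04%) lie below all 7 Malat1 ASO libraries (2.17% to 3.28%). In organoids the groups overlap, with scASO lowest within each number by the labels as deposited. In number 2 that rests on a library that goes against its label.

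The share also moved with the reads that the counting set aside for having several alignments. Per 100 counted reads these were 24.1 to 44.0 in tumors, with 24.1 to 25.1 in scASO tumors, 44.0 in ASO2 replicate 1 and 32 in ASO2 replicate 4, and 21.2 to 32.7 in organoids. As a description over libraries that share their counting step, r with the ribosomal protein share was 0.44 and rho 0.84 over the 10 tumors, and r was 0.73 and rho 0.81 without ASO2 replicates 1 and 4, the 2 farthest from the median. Over the 16 organoids r was 0.96 and rho 0.89, and r was 0.92 without Mock replicate 4 and scASO replicate 1. After taking away each number's mean, the organoid deviations still had an r of 0.95. Within a number the organoids labelled scASO also had the fewest such reads in every number, by 0.695 to 5.31 per 100 counted reads. In number 2 this rests on scASO replicate 2 (21.5), which goes against its label. ASO1 replicate 2 (22.7) lay above that library but below ASO2 replicate 1 (26.5), the other library that goes against its label. What part these reads have in the differences between groups was not tested.

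Gene by gene, 65 of the 74 had a positive r between their level and the several-alignment reads in organoids, with a median of 0.80. The median was 0.90 for the 11 least shared genes, 0.83 for the middle class and 0.68 for the 27 fully shared genes. The exceptions with the most negative values were Rpl27 at -0.60, Rps29 at -0.56, Rpl28 at -0.52, Rps16 at -0.43, Rpl23a at -0.40 and Rps26 at -0.25. In tumors 64 of 74 were positive, with a median of 0.49.

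Some of the genes differed several-fold between organoid replicate numbers. Numbers 1 to 4 are taken as paired across treatments, as set out with the processing. Every number 4 library lay above every number 1 library for 46 of 74 genes, against 24.4% of all genes tested, and below every one for 4, against 28.2%. Without the library labelled ASO2 replicate 1, whose profile was most like number 2 (r 0.93, against 0.69 with number 1), these counts were 57 (30.8% of all genes) and 6 (36.2%). Other cell markers also differed between the numbers. The 8 fibroblast and pericyte markers summed to 582 to 668 and 572 to 635 CPM in numbers 1 and 2, against 117 to 194 and 239 to 429 in numbers 3 and 4. The 8 macrophage markers summed to 368 to 471 and 363 to 539 CPM, against 160 to 187 and 195 to 263. Such sums weigh the most counted genes and need not follow the list. In scASO organoids against scASO tumors 1 of these 8 was higher (median log2 difference -2.88), yet the sums overlapped, at 186 to 456 and 405 to 500 CPM. The 8 adipocyte markers summed to 3.58 to 14.7, 4.60 to 7.11, 10.7 to 20.9 and 21.6 to 78.6 CPM in numbers 1 to 4. The part of all these markers in the ribosomal protein values was not tested.

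Rps10, a protein of the 40S head, had medians of 18.6, 22.1, 86.9 and 122 CPM in numbers 1 to 4, and Rpl39, a small protein of the exit tunnel, 25.9, 39.2, 107 and 134. Rps14, on the 40S platform, had 228, 348, 745 and 1076, and Rpl30 21, 22.7, 65.9 and 92.8. These genes were low in numbers 1 and 2 and high in numbers 3 and 4. Rps16, an rRNA-binding 40S protein, ran the other way, with 160, 263, 43.7 and 52.5 CPM, as did Rps29 with 8.38, 8.31, 2.41 and 3.21 and Rps26 with 409, 479, 181 and 263. Summed with its pseudogenes, Rps16 had medians of 540, 871, 759 and 1030 CPM, so the low values of numbers 3 and 4 held for reads counted at the gene and not for the sum. The sums of Rps29 were 177, 273, 274 and 412, which also ran the other way from the gene alone. Those of Rps26 were 774, 932, 403 and 586, still low in numbers 3 and 4.

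**Figure D4:**
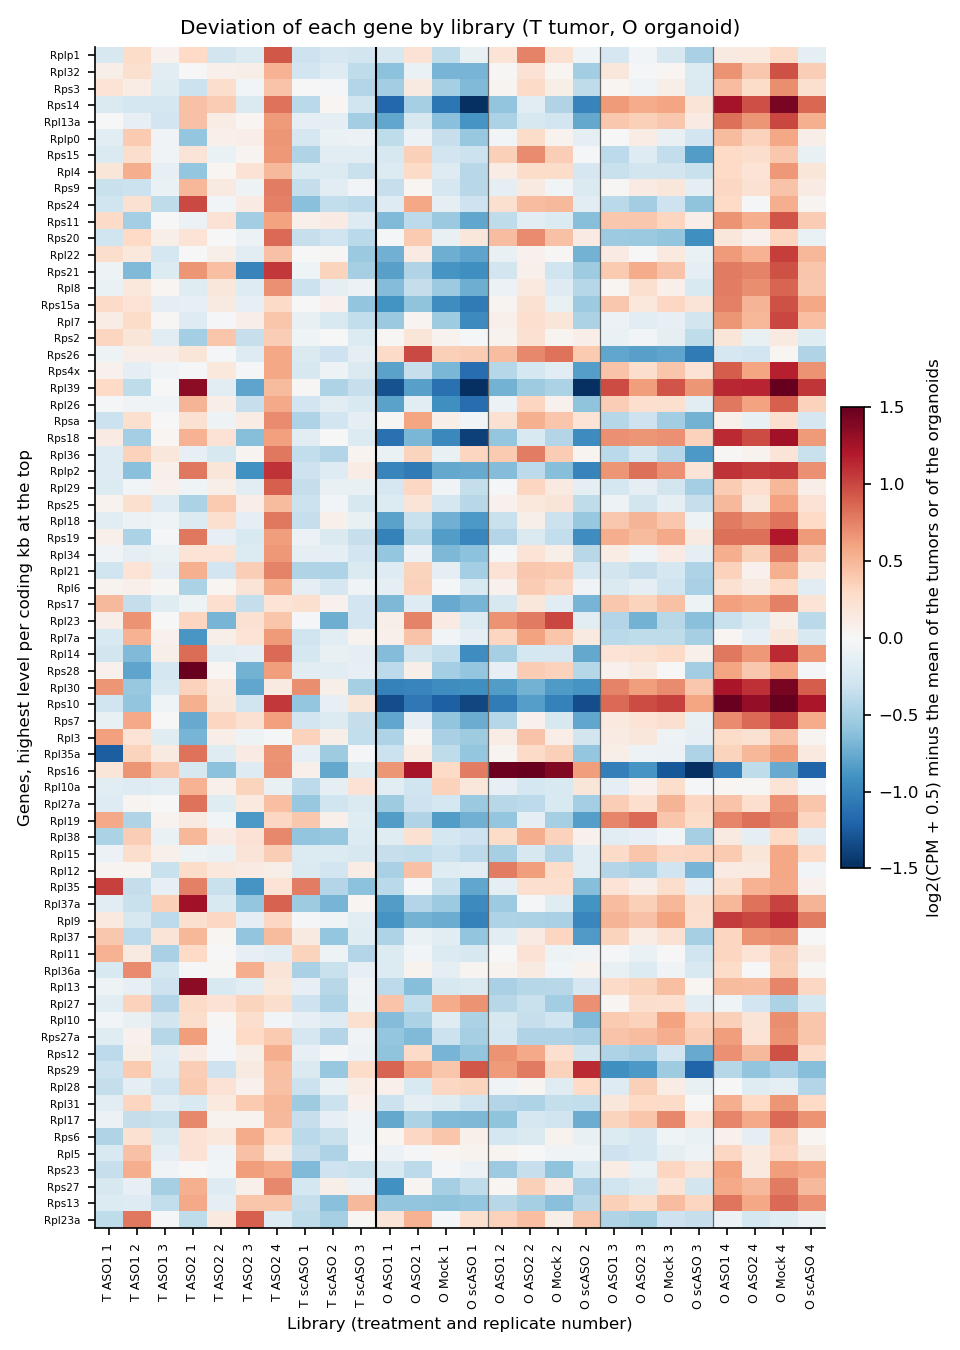
Level of 71 of the 74 genes in the 26 libraries as log2 CPM (pseudocount 0.5) minus the gene's mean over the tumors or over the organoids (colors end at 1.5 either way), with genes in order of level per coding kilobase, tumors by group and organoids by replicate number. Rps10, Rpl39 and Rps14 are low in organoid numbers 1 and 2 and high in numbers 3 and 4, and Rps16 and Rps29 are the reverse.

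In tumors, 72 of 74 genes had a higher mean with the Malat1 ASOs than with scASO, with a median log2 difference of 0.31 against 0.05 over all genes, of which 56.9% were above 0. None passed edgeR's quasi-likelihood test at an adjusted p of 0.05 (0 of 17354 genes, 0%, did), and 9 had an unadjusted p under 0.05, 12.2% of the 74 against 5.86% of all genes. DESeq2, which called 0.115% of all genes, and limma voom, which called 0%, also called 0 of the 74. The direction was shared by all 30 genes of the 40S subunit (median 0.30), 39 of 41 of the 60S subunit (0.34) and all 3 stalk genes (0.26). It was also shared across sequence classes, with medians of 0.29, 0.30 and 0.34 from the least to the fully shared genes. The genes moved together from library to library, so counts of genes in 1 direction are not counts of independent results. A gene's r with the mean of the other members had a median of 0.62 over tumors and 0.81 over organoids. It was over 0.5 for 51 and 53 of the 74 genes.

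Rpl38, a small 60S protein, had 13.6, 24.8 and 17.8 CPM with ASO1, 27.2, 20.7, 22.2 and 31.8 with ASO2 and 12.5, 12.7 and 16.4 with scASO. ASO1 replicate 1 lay within the scASO values and all others above. Its log2 difference was 0.67 (SE 0.23, adjusted p = 0.827, edgeR). Rps24, a 40S protein, had 455, 655 and 430 CPM with ASO1, 1112, 545, 609 and 949 with ASO2 and 363, 435 and 428 with scASO. ASO2 replicates 1 and 4 were the highest and ASO1 replicate 3 overlapped scASO, for a log2 difference of 0.67 (SE 0.26). Rpl15, a core 60S protein, had 46.7, 59.8 and 52.4, then 47.1, 46.4, 56.9 and 63.9, then 42.9, 42.8 and 41.7 CPM, with no overlap and a log2 difference of 0.34 (SE 0.14). Rpl21 was at 0.56 (SE 0.21), Rpl27a at 0.53 (SE 0.21), Rps23 at 0.69 (SE 0.29) and Rpl30 lowest at -0.13, and none of these passed the adjusted test.

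In 4 genes every ASO tumor lay above every scASO tumor, namely Rpl15, Rpl27a, Rpl32 and Rps20, 5.41% of the 74 against 0.882% of all genes, and 0 lay below (1.43% of all genes). Rpl32, a highly counted 60S gene, had 1005, 1123 and 851 CPM with ASO1, 951, 1003, 1006 and 1364 with ASO2 and 781, 827 and 731 with scASO. ASO2 replicate 4 was highest and ASO1 replicate 3 came nearest to the control values. Rps20, at the 40S head, had 263, 398 and 345, then 375, 323, 305 and 583, then 255, 263 and 246 CPM.

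Comparisons of each ASO share the scASO libraries. With ASO1, 57 of 74 genes were above scASO (55.5% of all genes), with a median log2 difference of 0.21, 0 were called (0.00576% of all genes were) and 0 had an unadjusted p under 0.05 (8.45% of all genes). Its smallest p values belonged to genes including Rpl23 (0.63), Rpl15 (0.34), Rpl7 (0.38) and Rpl32 (0.36), and the extremes were Rps16 at 0.71 (SE 0.33, adjusted p = 0.594, edgeR) and Rps21 at -0.24. With ASO2, 71 of 74 were above (55.2% of all genes), with a median of 0.45, 0 were called (0% of all genes) and 20 had an unadjusted p under 0.05 (5.14% of all genes). Rps24 was at 0.99 (SE 0.28), Rpl38 at 0.89 (SE 0.25, adjusted p = 0.886, edgeR), Rpl21 at 0.78, Rpl27a at 0.73 and Rpl3 lowest at -0.20. DESeq2 and voom called 0 for either ASO. Every ASO1 tumor lay above every scASO tumor for 14 genes, 18.9% of the 74 against 7.07% of all genes. For 0 genes did they all lie below (9.39% of all genes). With ASO2 these were 18 genes above, 24.3% against 3.49%, and 0 below (3.67% of all genes).

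With pseudogene reads added, all 74 genes were above scASO in the tumors, with a median of 0.32, and 0 were called (0% of all genes). Rpl30 and Rpl3, which were low with the ASOs at the gene alone, had sums at 0.19 for both ASOs and 0.23 for ASO2, and Rps6 was at 0.39 alone and 0.50 as a sum.

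Other cell markers moved with the tumor groups. All 8 adipocyte markers had a higher mean with the ASOs, summing to 7.08 to 9.11 CPM with scASO, 8.22 to 25.1 with ASO1 and 22.2 to 592 with ASO2, while Plin1 was at 0 in all scASO tumors. Skeletal muscle markers, 8 of 8 higher with both ASOs and with ASO2 but 1 of 8 with ASO1, summed to 1849 CPM in ASO2 replicate 1, 62.7 in ASO2 replicate 4 and 2.1 to 30.3 in the others, and Rpl3l, the muscle paralog of Rpl3, reached 12.5 CPM in ASO2 replicate 1. That library also had the highest sums of fibroblast and pericyte markers, 2968 against 442 to 1733 CPM, and of the 13 mitochondrially encoded mRNAs, 64059 against 13656 to 22239. Fibroblast and pericyte markers were higher in 8 of 8 with both ASOs and 4 of 8 with ASO1, and the mitochondrially encoded mRNAs in all 13. All 15 cell cycle genes of G2 and mitosis were higher with the ASOs, at sums of 623 to 2135 against 592 to 774 CPM. Epithelial markers were higher in 1 of 7. The part of these markers in the ribosomal protein values was not tested.

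In organoids, 64 of 74 genes were above scASO with the Malat1 ASOs, with a median log2 difference of 0.27 against 0.01 over all genes, of which 52.2% were above 0. None passed edgeR's test (0 of 17126 genes, 0%, did), DESeq2 called 0, and 3 had an unadjusted p under 0.05, 4.05% against 1.06% of all genes. The limma voom fit with quality weights called 8 higher and 2 lower, beside 2.42% of all genes higher and 3.59% lower. Without the 2 libraries that go against their labels, voom called 0 of the 74 and 0% of all genes. By edgeR 63 genes were then above scASO with a median of 0.21, and 0 were called (0% of all genes) or under the unadjusted threshold. For 0 genes did the ASO libraries lie wholly apart from scASO, against 0.0467% of all genes above and 0.0292% below. The median was 0.32 for the 11 least shared genes, all higher, 0.30 for the middle class with 35 of 36 higher, and 0.03 for the fully shared genes with 18 of 27 higher.

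Rpl37, a zinc-binding 60S protein, had 10.8, 13.5, 19.2 and 19.1 CPM with ASO1, 14.1, 16.6, 16.4 and 24.5 with ASO2 and 9.86, 8.19, 10.6 and 15.2 with scASO in replicates 1 to 4. Mock had 13.5, 19.1, 17.8 and 24.8. Each ASO library was above the scASO library of its number, and only scASO replicate 4 reached into the ASO range. Its log2 difference was 0.60 (SE 0.24, adjusted p = 1.00, edgeR). Rps28 was at 0.55, Rpl35a at 0.47, Rps15 at 0.46 and Rpl6 at 0.31, while Rps16 was at 0.68 with an SE of 0.70 and Rpl27 lowest at -0.38 with an SE of 0.25.

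Each ASO shares the scASO organoids. With ASO1, 65 genes were above scASO (52.4% of all genes; median 0.24), 0 were called (0% of all genes) and 0 had an unadjusted p under 0.05 (0.257% of all genes). With ASO2, 62 were above (51.5% of all genes; median 0.35), 0 were called (0%) and 7 had an unadjusted p under 0.05 (1.68%). With ASO2 voom called 32 higher and 2 lower, beside 11.5% and 11.7% of all genes, and with ASO1 voom called 0, as DESeq2 did for either ASO. Without the 2 libraries voom called 0 with ASO2 (0% of all genes). By edgeR 55 genes were then above scASO with ASO1 (median 0.16) and 63 with ASO2 (median 0.29). The genes with the smallest p were Rpl37, at 0.51 (SE 0.28) with ASO1 and 0.70 (SE 0.28) with ASO2, and Rps28. Within numbers 1 to 4, genes above the scASO library numbered 46, 63, 65 and 71 with ASO1 and 62, 64, 65 and 53 with ASO2. The values of number 2, and that of ASO2 in number 1, rest on the libraries that go against their labels.

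Mock, the second control, lay on the side of the ASOs. Within numbers, 52, 62, 72 and 72 of the 74 genes were above scASO in Mock. With scASO, 4 of 74 genes were above Mock (48.1% of all genes), with a median log2 difference of -0.36. By edgeR 0 were called (0% of all genes) and 3 had an unadjusted p under 0.05 (1.59%), and DESeq2 and voom called 0. With the replicate number as a block, 4 genes fell with scASO in edgeR's test, beside 0.199% of all genes lower. They included the 60S genes Rpl37 by 0.78 (SE 0.13, adjusted p = 0.0263) and Rpl35 by 0.59 (SE 0.11, adjusted p = 0.0362), and Rps18, on the 40S head, by 0.48 (SE 0.10, adjusted p = 0.0470), all on the log2 scale. Rpl35 had 14.0, 15.5, 21.9 and 25.5 CPM with scASO and 19.3, 29.2, 29.4 and 36.4 with Mock, lower in each number. Without the 2 libraries that go against their labels 5 genes were above Mock with a median of -0.26 by edgeR, and 29 with a median of -0.06 by voom, with 0 called by either. There the block gave 6 lower in edgeR, Rpl9 among them (0.375% of all genes lower). Rps28 at -0.56, Rpl35a at -0.53 and Rpl6 at -0.33 did not pass, and Rps29 was highest at 0.38.

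Against Mock the Malat1 ASO organoids were close to level. Above Mock were 18 of 74 genes (46.4% of all genes), with a median of -0.08 by edgeR and 0.04 by voom. By edgeR 0 were called (0% of all genes) and 1 had an unadjusted p under 0.05 (2.73%), and DESeq2 and voom called 0. The named genes were Rpl10a at -0.28 (SE 0.12), Rps6 at -0.29, Rpl10 at -0.30, Rpl27a at -0.25, Rps23 at -0.23 and Rps16 highest at 0.36. Without the 2 libraries that go against their labels 22 were above Mock with a median of -0.05, and with the block as well 5 genes fell, beside 4.35% of all genes lower, on the log2 scale by 0.25 to 0.34, among them Rpl27a, Rps6, Rpl10 and Rpl23. ASO values against scASO and against Mock share the ASO libraries, so the medians of 0.27 and -0.08 stand side by side with scASO against Mock at -0.36. When 1 library was left out, these medians ran from 0.15 to 0.50, from -0.22 to 0.17 and from -0.57 to -0.07, in that order.

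With pseudogene reads added, 72 of 74 genes were above scASO in organoids (median 0.29), 12 above Mock (median -0.08), and for scASO 1 was above Mock (median -0.40), with 0 called in each by edgeR (0% of all genes). When the several-alignment reads were a covariate of the fit, the organoid medians were between -0.06 and 0.06 and the tumor median was 0.20. Those reads may include reads of the ribosomal protein genes themselves, whose coding stretches were shared at a median of 90.8%. Their number also moved with the ribosomal protein share, at an r of 0.96 over organoids. Such a covariate can take out differences of the genes themselves, and no conclusion is drawn from this fit.

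**Figure D5:**
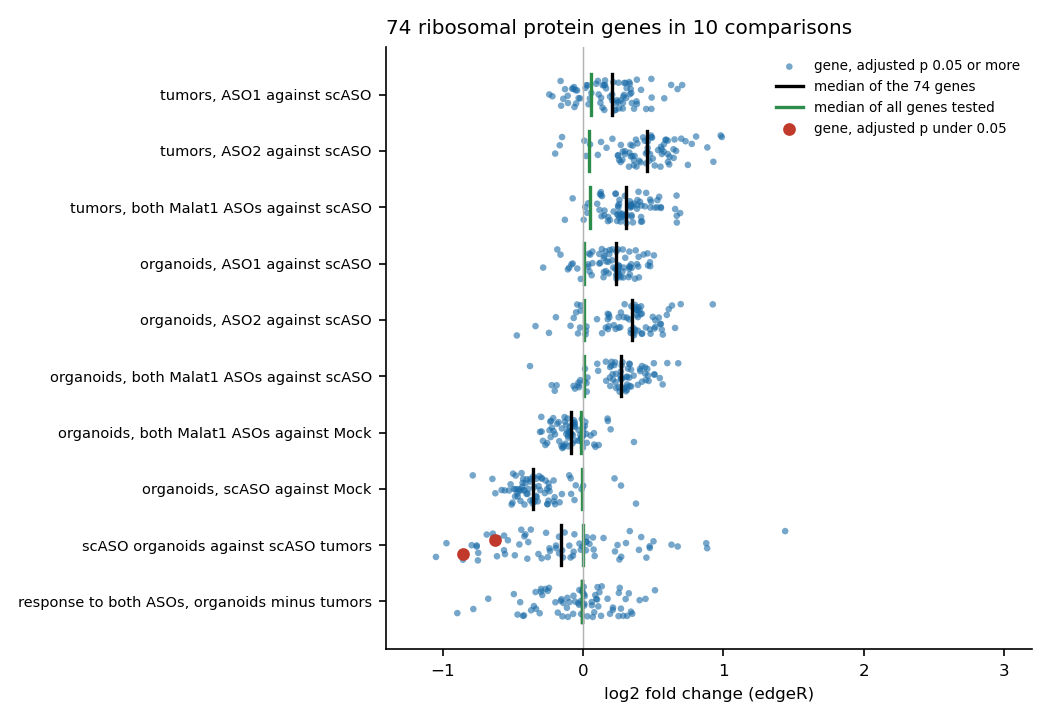
Log2 differences of the 74 genes in each comparison, 1 point per gene, from edgeR, with black lines for the median of the 74 genes, green lines for that of all genes tested and red points for an adjusted p under 0.05. The medians are 0.31 in tumors and 0.27 in organoids for both Malat1 ASOs against scASO, and -0.36 for scASO against Mock.

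Between scASO organoids and scASO tumors, 26 of 74 genes were higher in organoids (50% of all genes; median -0.16). In edgeR's test 2 fell, beside 12.1% of the 18695 genes tested that fell and 23.5% called in either direction, and 12 had an unadjusted p under 0.05 (37% of all genes). Rpl10a, a 60S protein at the site where spent tRNA leaves, had 74.5, 88.6 and 114 CPM in tumors and 63.7, 64.2, 55.3 and 56.1 in organoids, with no overlap, and fell by 0.63 on the log2 scale (SE 0.16, adjusted p = 0.00815). Rpl10 had 31.5, 29.8 and 40.4 in tumors and 13.6, 11.8, 23.9 and 25.7 in organoids, also with no overlap, and fell by 0.86 (SE 0.30, adjusted p = 0.0448). Rps27a at -0.79, Rpl11 at -0.56, Rps2 at 0.48, Rps13 at -1.05 and Rps16 at 1.44 (SE 0.76) did not pass. With its pseudogenes added, Rpl10a was at 0.08 and Rps16 at -0.06, and 0 of the 74 were called (23.5% of all genes). Pseudogenes held 88.1% of the joint Rpl10a reads, so its sum mostly reflects them and cannot show what the gene itself did. With the replicate block 5 genes rose, Rps26, Rps16, Rps20, Rpl23 and Rpl6, and 24 fell (19.4% of all genes rose and 23% fell). Without the organoid libraries that go against their labels, 28 genes were higher (median -0.08) and 1 fell, Rpl10a, while Rpl10 was at -0.69 (adjusted p = 0.131, edgeR). In 4 genes the organoids lay wholly above the tumors (19.4% of all genes) and in 6 wholly below (20.9%). The call of Rpl10a ended without tumor scASO replicate 3 (adjusted p = 0.0878, edgeR), and that of Rpl10 without any of tumor scASO replicates 1 to 3, organoid scASO replicates 1 or 2, tumor ASO1 replicate 1 or tumor ASO2 replicates 1 or 3 (adjusted p up to 0.171, edgeR). Endothelial, macrophage and lymphocyte markers fell in 5 genes each in the same test, and their part in these values was not tested.

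By edgeR no ribosomal protein gene passed the test for a difference in response to the Malat1 ASOs between organoids and tumors. The difference of responses was above 0 for 35 of 74 genes (49% of all genes). By edgeR 0 were called (0% of all genes) and 2 had an unadjusted p under 0.05 (4.45%), DESeq2 called 0 (0.0107% of all genes) and voom called 1, lower (1.09% of all genes lower). Without the 2 organoid libraries 31 genes were above 0, and edgeR and voom called 0. The genes with the smallest p values or extreme values included Rps23 at -0.89, Rpl27 at -0.78, Rpl36a at -0.47, Rpl5 at -0.43, Rps6 at -0.42 and Rpl19 at 0.51, and as sums with pseudogenes Rpl5 was at -0.11, Rps6 at -0.18 and Rpl19 at -0.03.

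Other genes of ribosome production and translation are given beside the family. All 15 translation factors with TOP mRNAs, such as Eef2 and Pabpc1, were above scASO in tumors (median log2 difference 0.19) and in organoids (0.23), with 0 called in either, and 1 of 15 was above Mock with scASO (-0.24). Among them Npm1 rose by 0.69 and Pabpc1 by 1.12 in scASO organoids against scASO tumors, where 4 were called higher, beside 11.4% of all genes. In that comparison 3 biogenesis factors were called higher and 1 lower, 7 of the G2 and mitosis genes higher, and 1 mitochondrial ribosomal protein higher and 6 lower. Ribosome biogenesis factors were above scASO in 29 of 32 in tumors (0.14) and 8 of 32 in organoids (-0.14), with 0 called. Regulators of ribosome production, such as Myc and Mtor, did not share the rise in tumors. They were above scASO in 5 of 13 in tumors (-0.07) and 4 of 13 in organoids (-0.05), with 0 called. Mitochondrial ribosomal proteins, built for the separate mitochondrial ribosome, were above in 69 of 76 in tumors (0.20) and 43 of 76 in organoids (0.02), with 0 called. The 15 G2 and mitosis genes were all above scASO in tumors (0.72) and all below it in organoids (-0.42), with 0 called.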

How the data were processed

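PolyA+ RNA of 10 tumor and 16 organoid libraries was used. Whole-number read counts per gene were deposited by the authors, 1 table per library, and 5 further lines of unassigned reads stayed out of library sizes. Extraction used TRIzol and library preparation TruSeq, per the labels' protocols. CASAVA, FastQC, STAR, HTSeq and DESeq2 and the build mm9 are listed per the submitters' processing notes; for their versions and roles, for strand and annotation, and for whether the line of several alignments counts reads or alignments, nothing was stated (not given in the sources used here).

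Symbols came from GENCODE M21 for 32620 of 37310 IDs. Coordinates are GRCm38 and were not applied to the files. CPM used TMM factors over 26 libraries. Tests used edgeR 4.0.16 (quasi-likelihood, TMM, R 4.3.3; filterByExpr limits 10 per library and 15 in total) on all genes, with Benjamini-Hochberg adjustment and a threshold of 0.05. DESeq2 1.42.0, limma 3.58.1 (voom), other scalings, no filter, the replicate block, the several-alignment covariate, pseudogene reads added and leaving out each library were alternatives. Some of these were chosen after seeing the data: the block, and voom, without the 2 organoid libraries that go against their labels, the same library left out of the count by number, and the reads of every pseudogene sharing a 50-base coding stretch.

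The scripts were tested on simulated data with known changes. Of 100 genes changed 2-fold, edgeR called 12 for both ASOs against scASO in tumors and 34 in organoids. It called 27 of 100 for scASO against Mock and 15 of 100 for organoids against tumors. A gene that was not called may therefore still differ.

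The members and lists were chosen with earlier results of these data known. Named in each comparison were called genes, the 5 smallest p values, the highest and lowest difference, and genes at the extremes of level and sharing; a few of these are not reported here. In organoids, 24 of 24 same-numbered pairs deviated together from their group means (r 0.44 to 0.92, all over 0.1), so numbers were taken to pair libraries; the pairing comes from the data, and the fit without the block is the main one. In tumors 2 of 9 pairs did. No pair of libraries was near-identical.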

Additional observations from a re-analysis of the deposited data

Results flagged for a closer look

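In groups of 4 libraries, a named gene was set aside when its highest or lowest library lay farther from the rest than Dixon's 95% limit (0.829 of the range). This occurred in 5 of 170 checks, over 32 named genes and summary levels of the family, and chance alone marks about 1 in 20. Rpl27 was at 18.6 CPM in organoid ASO2 replicate 3 and at 11.9 to 12.6 in the other 3. Rpl32 was at 1364 CPM in tumor ASO2 replicate 4 and at 951 to 1006 in the others. Rpl35a was at 45.1 CPM in organoid scASO replicate 4, against 26.9 to 29.3. The other cases were low libraries of organoid scASO replicate 3, with Rpl36a at 11.7 CPM against 13.9 to 14.2 and Rplp1 at 721 against 925 to 967.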

How the results depend on the processing

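No ribosomal protein gene was called in the tumor comparisons under any alternative tried. In organoids voom called 10 genes for both ASOs against scASO, 34 for ASO2 and 1 for the difference of responses, each 0 without the 2 libraries that go against their labels. With the replicate block, scASO against Mock had 4 calls, and 6 without the 2 libraries that go against their labels, where both ASOs against Mock had 5. The 2 calls of organoids against tumors became 1 with DESeq2 size factors, with no filter and without the 2 libraries, 10 with no scaling, 8 with totals that include unassigned reads, 51 with voom (3 without the 2 libraries), 4 with the covariate, 29 with the block, 21 with the block without the 2 libraries, 0 with either addition of pseudogene reads, and 1 to 3 when 1 library was left out. The block changed no other number of calls. For organoids against tumors, the shares of all genes called under each setting are not given beside these counts. The counts therefore show only how calls depend on the processing, and not an excess in the family.

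Directions turned for single genes, as log2 differences. With 1 library left out, Rpl30 in tumors ran from -0.38 to 0.23 (the latter without scASO replicate 1), Rps23 for both ASOs against Mock from -0.44 to 0.0048 (the latter without Mock replicate 4), and Rps29 for scASO against Mock from -0.011 (without scASO replicate 2) to 0.69. Rps29 was at -0.39 with the covariate, -0.43 with all pseudogenes, -0.014 without the 2 libraries (-0.71 by voom) and -0.010 with the block too. Rpl3 with ASO2 in tumors was at 0.0021 with the covariate and 0.23 with named or with all pseudogenes, where Rpl30 was at 0.19. Rpl27 in organoids, with the block without the 2 libraries, was at 0.075 for both ASOs, 0.035 for ASO1 and 0.11 for ASO2. Rpl10a with ASO1 in organoids was at 0.14 with either addition. For organoids against tumors, named and all pseudogenes gave Rpl10a 0.081 and 0.083 and Rps16 -0.061 and -0.061, and Rpl19 in the difference of responses -0.027 and -0.028. The cause was not tested, beyond the added reads themselves. In all, 1831 values of single genes kept their direction and side of the threshold and 23 turned. Depth limits Rpl23a most, with 14 reads in its poorest library.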
